A study of Mus musculus with 14 samples.

Results

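The regions at 10 genes, Cpeb2, Cdk13, Irf2bp2, Zswim6, Arid1b, Yy1, Klf13, Arid1a, Ssbp3 and Irs2, were selected on their signal for H3K4me3, the trimethylation of lysine 4 on histone H3. They were among the strongest regions outside satellite-type ones in the cortex of saccharin-treated control mice. Of the 14881 regions with values, 11 carried the symbol of one of these genes: 1 strong region for each gene and a second, weak one at Arid1b. ChIP-seq used cerebral cortex from C57BL/6J animals, 3 months of age. The 4 groups were postnatal saccharin and postnatal nicotine with 4 libraries each, and pre- and postnatal saccharin and pre- and postnatal nicotine with 3 libraries each. All groups drank a saccharin or a nicotine solution during development. One treatment text, the same for all, has it given to the mothers from conception on, withdrawn at day 21 and followed by rest until day 90. It describes no course limited to the time after birth, so the postnatal exposure rests on the names of the groups. Whether libraries come from separate or pooled animals is not given, and p-values then measure only the spread between these samples, which may be technical. Whole cortex mixes many cell types: a mark in fewer cells and less of it per cell cannot be told apart.

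H3K4me3 is deposited at active and poised promoters by the SET1 and MLL methyltransferase complexes, which are drawn to unmethylated CpG islands. It is read by proteins with PHD fingers, among them a subunit of the general transcription factor TFIID. Most active promoters carry a narrow peak beside the transcription start, and a small set carries broad domains that are known to mark genes of cell identity and regulators of transcription. Most of the genes act on transcription: Arid1a and Arid1b are alternative DNA-binding subunits of the BAF chromatin remodelling complex, Yy1 and Klf13 are zinc finger transcription factors, Irf2bp2 is a corepressor of interferon regulatory factor 2, Ssbp3 is a cofactor of the LIM-domain-binding proteins, and Cdk13 is a cyclin K-dependent kinase of RNA polymerase II. Others do not: Cpeb2 binds cytoplasmic polyadenylation elements and regulates translation, and Irs2 is an adaptor of the insulin and IGF receptors. Zswim6 carries a SWIM zinc finger and is known from human neurodevelopmental disorders.

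The promoters of these genes are rich in CG dinucleotides, the sequence that CpG-island-binding proteins recognise. RefSeq promoter sequences (build GRCm38.p6, 250 bases before to 50 after a transcription start) were found for 9 of the 10 genes, with 11 entries. Cpeb2 had no entry. These entries held 3 to 52 CG dinucleotides in 300 bases with a median of 39, against a median of 7 over all 32851 promoters and of 21 over the 9621 promoters of genes with an H3K4me3 region. Their GC content had a median of 72.0%, against 52.7% over all promoters. The bases before the start are shown for 5 genes, 2 whose regions are dense and narrower and 3 whose regions are wide, to let their CG content be read beside the values that follow. CG is in capitals and the sequences run 5′ to 3′ along the gene's strand. The H3K4me3 regions are given on another build, mm9, so the place of these bases within the regions was not analysed here.
Ssbp3 (chr4:106911220-106911469, plus strand): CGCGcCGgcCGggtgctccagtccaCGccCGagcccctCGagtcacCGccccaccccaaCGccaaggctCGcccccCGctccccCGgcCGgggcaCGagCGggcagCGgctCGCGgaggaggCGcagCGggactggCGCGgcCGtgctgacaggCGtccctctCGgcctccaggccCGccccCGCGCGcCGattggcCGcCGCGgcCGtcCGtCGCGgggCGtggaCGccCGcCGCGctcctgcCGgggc
Klf13 (chr7:63938916-63939165, minus strand): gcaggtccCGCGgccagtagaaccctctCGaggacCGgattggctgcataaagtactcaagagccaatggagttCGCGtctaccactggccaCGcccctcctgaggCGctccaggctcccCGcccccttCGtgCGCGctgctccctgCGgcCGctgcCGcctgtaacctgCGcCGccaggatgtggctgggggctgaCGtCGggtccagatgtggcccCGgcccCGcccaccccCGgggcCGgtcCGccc
Irf2bp2 (chr8:126593987-126594236, minus strand): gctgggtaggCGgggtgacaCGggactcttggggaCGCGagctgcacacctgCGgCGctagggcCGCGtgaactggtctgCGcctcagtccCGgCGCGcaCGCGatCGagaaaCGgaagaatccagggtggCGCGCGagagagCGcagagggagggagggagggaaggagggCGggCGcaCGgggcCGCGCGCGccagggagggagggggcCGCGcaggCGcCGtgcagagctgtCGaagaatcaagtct
Irs2 (chr8:11008930-11009179, minus strand): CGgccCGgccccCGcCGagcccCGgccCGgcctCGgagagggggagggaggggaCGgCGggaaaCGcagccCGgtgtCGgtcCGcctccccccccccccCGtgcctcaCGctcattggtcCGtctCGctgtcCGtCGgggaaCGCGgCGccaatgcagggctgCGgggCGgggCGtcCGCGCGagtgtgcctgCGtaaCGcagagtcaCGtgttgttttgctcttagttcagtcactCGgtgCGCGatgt
Arid1a (chr4:133756770-133757019, minus strand): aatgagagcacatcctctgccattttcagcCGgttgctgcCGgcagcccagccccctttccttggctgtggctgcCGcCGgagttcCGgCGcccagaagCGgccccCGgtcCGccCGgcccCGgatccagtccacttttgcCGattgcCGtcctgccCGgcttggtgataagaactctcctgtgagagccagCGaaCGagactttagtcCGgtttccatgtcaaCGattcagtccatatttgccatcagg

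The Ssbp3 stretch held 43 CG dinucleotides in its 250 bases, Irs2 34, Irf2bp2 32, Klf13 24 and Arid1a 18. Arid1a has a second RefSeq start inside the gene, whose 300-base entry held 36 CG dinucleotides. The poorest entry, with 3, belongs to an inner start of Ssbp3. Searched on both strands of the 300 bases, the GC box GGGCGG was present in 10 of the 11 entries (90.9%), against 64.8% of the promoters of genes with a region and 35.7% of all promoters. The YY1 motif AANATGGC was present in 2 of the 11, the outer entry of Arid1a and that of Arid1b, and not in the entry of Yy1 itself. It was in 7.74% of the promoters of genes with a region and 6.05% of all promoters. TATAAA was present in 1 of the 11, that of Zswim6, against 7.10% of the promoters of genes with a region and 13.6% of all promoters. GCGCATGC, the NRF1 motif, was present in 0, against 5.17% and 2.71%. A match of letters is a description of the sequence and shows no binding.

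The values are read counts per region that the submitters had adjusted with edgeR, each exposure in a table of its own, so levels are compared only within a table. Raw depth is unknown. A library's total was 2004918 to 2489860 after postnatal exposure and 1445810 to 2372855 after the longer one. Libraries 1 and 2, and libraries 3 and 4, of each postnatal group differed by little more than counting noise (variance 1.01 to 1.08 times that of counts, against 2.21 to 2.71 for the remaining pairs of a group). They were therefore merged into their mean and treated as 1 replicate, so n = 2 per postnatal group. For this ratio the adjusted values were read as counts, so its size depends on the unknown adjustment. 15 regions with a postnatal mean signal over 3000, taken as satellite-type, were set apart and the other 14866 ranked. Their share of a library's signal was 8.30% to 25.5% after postnatal exposure, or 19.1% to 49.7% for the longer one. Cortical markers had H3K4me3 regions: 6 of 8 genes of the cortical excitatory list were among the regions analysed here. Of the 5 genes of each of the astrocyte, microglia and liver or muscle lists, 0 were. Of the 6 genes of the hindbrain list, 2 were. Having a region here therefore does not tell present cell types or tissues from absent ones.

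In postnatal saccharin cortex the 10 regions held a signal of 705 to 1082, with a median of 817, where the median of the 14866 ranked regions was 83.1. These values chose the genes and are given as a description, with no test. They took ranks 7 to 24 of 14866, and ranks 2 to 14 among the 11388 regions with a named gene. The order within the set was mostly not resolved. Cpeb2 stood first, and its averaged samples did not overlap those of Cdk13, the next, although the single libraries did. For every later pair of neighbours the averaged samples overlapped.

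**Figure D1:**
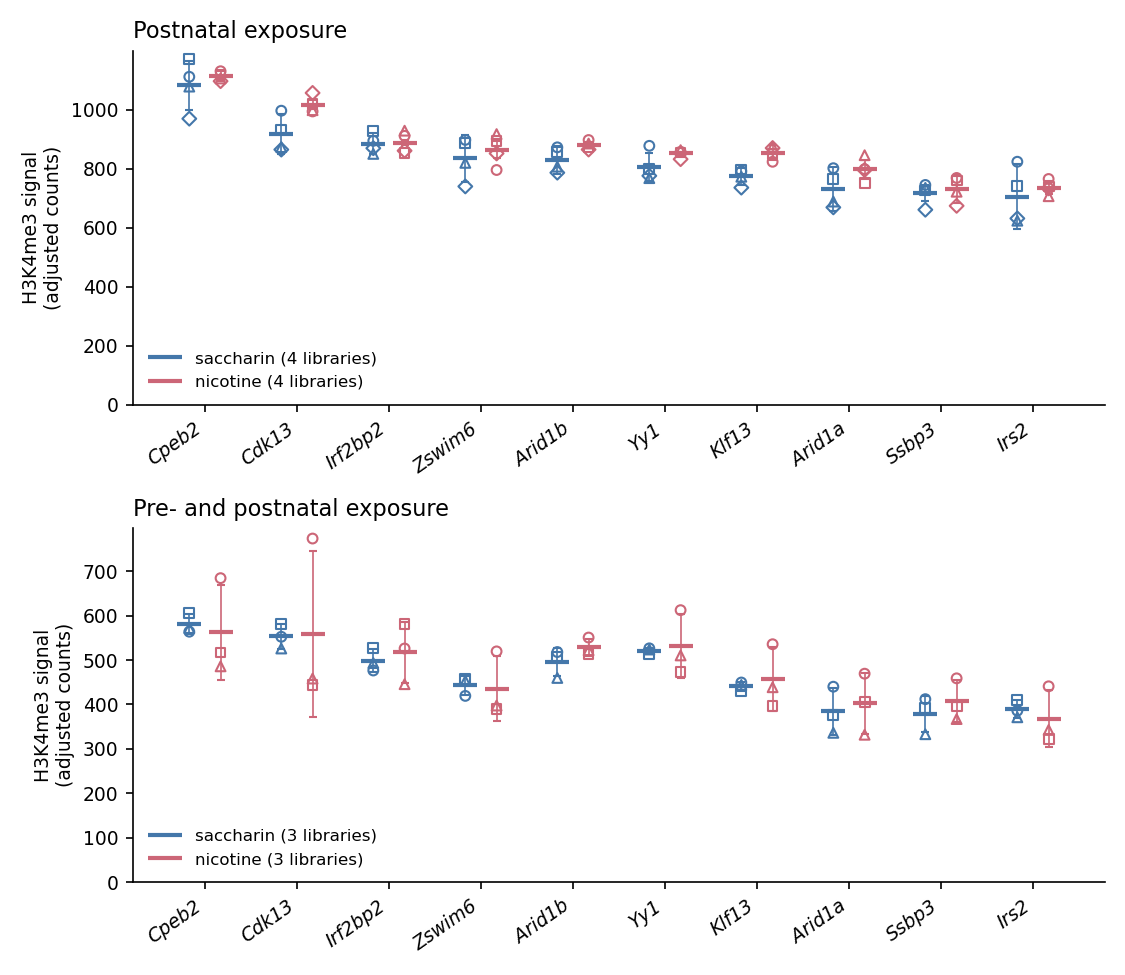
H3K4me3 signal (adjusted counts, linear axis from 0) of the strongest region of each gene, ordered by the postnatal saccharin mean. Open symbols are libraries, bars the group means and whiskers the SD over samples (n = 2 averaged pairs per postnatal group, n = 3 per pre- and postnatal group); the panels have separate scales because the tables were adjusted separately. Saccharin and nicotine libraries overlap at most genes, and 1 pre- and postnatal nicotine library, number 1, sits above the other two nicotine libraries at 9 of the 10.

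The BAF subunits came as a pair. Arid1b is one of their alternative large subunits. Its region (chromosome 17, 4993616 to 4997593, 3977 bp) held 872, 856, 806 and 786 in the postnatal saccharin libraries 1 to 4, a mean of 830.1 ± 48.0 (SD, n = 2) or 209 per kb. In the postnatal nicotine libraries 1 to 4 the values were 897, 873, 885 and 864. Saccharin libraries 3 and 4 were the lowest of the 8, and the nicotine pairs lay above both saccharin pairs. After pre- and postnatal exposure the saccharin libraries 1, 2 and 3 held 518, 507 and 459.6 and the nicotine libraries 1, 3 and 4 had 551, 514 and 522. The nicotine values lay close together and 1 of them lay below the highest saccharin value.

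The second Arid1b region (chromosome 17, 5189362 to 5190515, 1153 bp) held 27.4, 29.1, 32.4 and 25.7 in the postnatal saccharin libraries and 27.1, 18.9, 38.2 and 24.5 in the nicotine ones. It lay below the median region, and the groups overlapped.

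Arid1a, the paralog that takes the place of Arid1b in other BAF complexes, had the lowest density of the 10. Its region (chromosome 4, 133306900 to 133311091, 4191 bp) held 801, 764, 688 and 668 in the postnatal saccharin libraries 1 to 4, a mean of 730.4 ± 73.7 (SD, n = 2) or 174 per kb. The postnatal nicotine libraries 1 to 4 held 798, 751, 845 and 795. The saccharin pairs differed from each other: libraries 3 and 4 lay below libraries 1 and 2 and below every nicotine library. The pre- and postnatal saccharin libraries 1, 2 and 3 had 439.9, 377 and 336, and the nicotine libraries 1, 3 and 4 had 469, 406 and 332. Both groups spread widely, and their values ran through each other.

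Yy1, a zinc finger factor that activates or represses by context and bridges promoters and enhancers, followed. Its region (chromosome 12, 110030014 to 110033563, 3549 bp) held 877, 799, 767 and 775 in the postnatal saccharin libraries 1 to 4, a mean of 805 ± 47.1 (SD, n = 2) or 227 per kb. With nicotine after birth, libraries 1 to 4 gave 857, 854, 862 and 832. The nicotine libraries spanned a narrow range, and saccharin library 1 alone exceeded them. Exposure before and after birth gave 526, 514 and 524 in saccharin libraries 1, 2 and 3 and 612, 473 and 510.3 in nicotine libraries 1, 3 and 4. The saccharin libraries were nearly equal here, while nicotine library 1 stood above and libraries 3 and 4 below them.

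Klf13, a Krüppel-like factor that binds GC-rich promoter sites, had one of the denser regions. Its region (chromosome 7, 71081740 to 71084936, 3196 bp) held 791, 797, 772 and 735 in the postnatal saccharin libraries 1 to 4, a mean of 774 ± 28.4 (SD, n = 2) or 242 per kb. Values of 823, 849, 874 and 869.5 were found in postnatal nicotine libraries 1 to 4. All 4 nicotine libraries lay above all 4 saccharin libraries. For the pre- and postnatal exposure, saccharin libraries 1, 2 and 3 held 449, 430.2 and 444 and nicotine libraries 1, 3 and 4 had 536, 396 and 439. Here the nicotine libraries lay on both sides of the saccharin ones.

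Irf2bp2, the corepressor, had the widest region of the set and rank 2 in width among all ranked regions. Its region (chromosome 8, 129114736 to 129119311, 4575 bp) held 894, 926, 849.6 and 869 in the postnatal saccharin libraries 1 to 4, a mean of 885 ± 36.1 (SD, n = 2) or 193 per kb. Postnatal nicotine libraries 1 to 4 had 911, 852, 928 and 860.4. The groups covered the same range. In the pre- and postnatal table the values were 476, 527 and 493 for saccharin libraries 1, 2 and 3 and 526, 581 and 446 for nicotine libraries 1, 3 and 4. Nicotine library 3 was the highest, and in that library Irf2bp2 was the strongest of the 10 genes.

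Ssbp3, the single-stranded DNA-binding cofactor of LDB proteins, had the narrowest region and a density below that of Cdk13 alone. Its region (chromosome 4, 106582716 to 106585489, 2773 bp) held 744, 726, 735 and 660.5 in the postnatal saccharin libraries 1 to 4, a mean of 716 ± 26.6 (SD, n = 2) or 258 per kb. In the postnatal nicotine libraries 1 to 4 the values were 768, 759.6, 721 and 674. Library 4 was the lowest in both groups, and the groups overlapped. After pre- and postnatal exposure the saccharin libraries 1, 2 and 3 held 412, 391 and 333 and the nicotine libraries 1, 3 and 4 had 459, 395 and 367. Saccharin library 3 was the lowest of the 6.

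Cdk13 phosphorylates the C-terminal domain of RNA polymerase II during elongation and had the densest region of the 10. Its region (chromosome 13, 17894545 to 17898002, 3457 bp) held 996, 933, 873 and 864 in the postnatal saccharin libraries 1 to 4, a mean of 916 ± 67.7 (SD, n = 2) or 265 per kb. The postnatal nicotine libraries 1 to 4 held 994, 1018, 998 and 1056. Each nicotine pair lay above each saccharin pair, although saccharin library 1 matched the lowest nicotine library. The pre- and postnatal saccharin libraries 1, 2 and 3 had 552, 581 and 526, and the nicotine libraries 1, 3 and 4 had 774, 444 and 458. Nicotine library 1 was far above every other library of this table, and the other two nicotine libraries lay below all 3 saccharin libraries.

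Among the genes outside transcription, Cpeb2, the translation regulator, had the strongest region. Its region (chromosome 5, 43623486 to 43627868, 4382 bp) held 1111, 1170.4, 1078 and 969 in the postnatal saccharin libraries 1 to 4, a mean of 1082 ± 83.0 (SD, n = 2) or 247 per kb. With nicotine after birth, libraries 1 to 4 gave 1129.7, 1118, 1105 and 1096. The nicotine values lay inside the saccharin range. Exposure before and after birth gave 564, 606 and 572 in saccharin libraries 1, 2 and 3 and 684, 517 and 486 in nicotine libraries 1, 3 and 4. Nicotine library 1 was again the highest and libraries 3 and 4 the lowest of the 6.

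Zswim6 came between the regulators of transcription in level. Its region (chromosome 13, 108678274 to 108682128, 3854 bp) held 897, 886, 819 and 739 in the postnatal saccharin libraries 1 to 4, a mean of 836 ± 79.4 (SD, n = 2) or 217 per kb. Values of 795, 893, 917 and 851 were found in postnatal nicotine libraries 1 to 4. Saccharin library 4 and nicotine library 1 were the lowest of their groups, and the ranges overlapped. For the pre- and postnatal exposure, saccharin libraries 1, 2 and 3 held 419, 457 and 453 and nicotine libraries 1, 3 and 4 had 519, 390.4 and 397. The 3 saccharin libraries lay between nicotine library 1 above and the other two below.

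Irs2, the insulin receptor substrate that couples the receptors to phosphoinositide 3-kinase, was the weakest of the 10 and varied the most in postnatal saccharin. Its region (chromosome 8, 11006292 to 11010312, 4020 bp) held 823, 741, 623 and 631 in the postnatal saccharin libraries 1 to 4, a mean of 705 ± 109 (SD, n = 2) or 175 per kb. Postnatal nicotine libraries 1 to 4 had 765, 739, 706 and 733. Saccharin library 1 lay above all nicotine values and saccharin libraries 3 and 4 below all of them. In the pre- and postnatal table the values were 386, 411 and 371 for saccharin libraries 1, 2 and 3 and 441, 322 and 342 for nicotine libraries 1, 3 and 4. Nicotine library 1 was the highest and libraries 3 and 4 the lowest of the 6.

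Cpeb2 was the strongest of the 10 in 11 of the 14 libraries. The exceptions were all pre- and postnatal nicotine libraries, led by Cdk13 in library 1, Irf2bp2 in library 3 and Arid1b in library 4. In every library the lowest of the 10 was Irs2, Ssbp3 or Arid1a.

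All 10 regions were wider and denser than the median ranked region, and they differed in which of these measures ranked higher. A region's signal is a sum over its bases, so wide regions tend to hold more (Pearson's r = 0.81 between log2 signal and log2 width over the 14866 ranked regions, which are not independent replicates). The 10 regions had a median width of 3915.5 bp against 1583 bp for all ranked regions, and a median of 222 per kb against 50.2. Both values rest on the signal that chose them or go with it, so they are a description. Ranked on width from the widest, Irf2bp2 was 2, Cpeb2 4, Arid1a 15 and Irs2 23, while in density they were 241, 31, 502 and 478. Ssbp3 and Klf13 were the reverse, with ranks of 640.5 and 252 in width and of 25 and 38 in density. Cdk13, at rank 21 in density and 130.5 in width, also leaned to density. Zswim6, Arid1b and Yy1 lay between, at density ranks of 102, 137 and 64 and width ranks of 44, 30 and 102. Cpeb2 stood near the top in both. The lowest ranks of the 10, 640.5 in width and 502 in density, are out of 14866, so the contrast is one of degree.

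**Figure D2:**
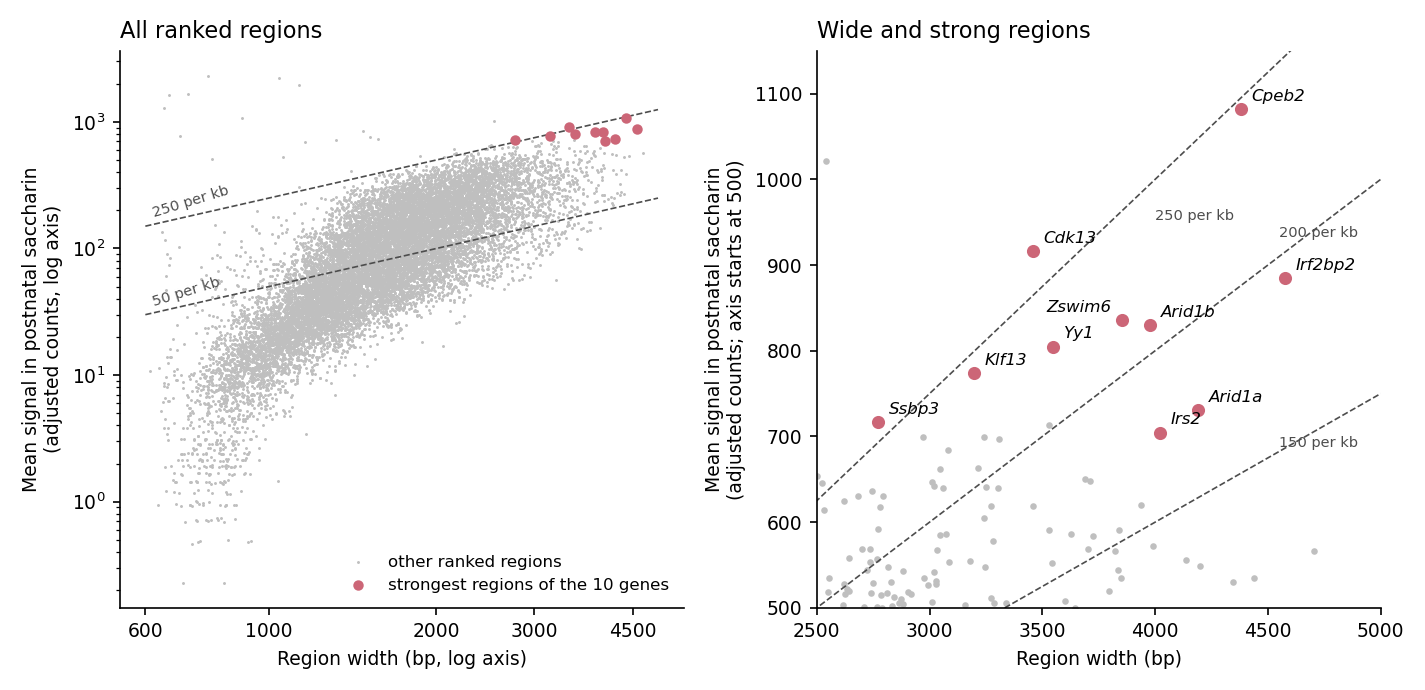
Region width against mean signal in postnatal saccharin. The left panel shows the 14866 ranked regions on log axes and the right panel the wide and strong ones on linear axes; dashed lines join points of equal signal per kb and red points are the strongest regions of the 10 genes. The red points lie along the upper edge of the cloud. Ssbp3, Klf13, Cpeb2 and Cdk13 lie near or above the line of 250 per kb, and Irs2, Arid1a and Irf2bp2 between the lines of 150 and 200.

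Width alone did not single them out: 632 other regions were at least as wide as that at Ssbp3, with a median signal of 289 and 92.4 per kb, and 1 of these reached the signal of Irs2. That 1 is at Phf13, a PHD finger protein that binds H3K4me3 itself, with 714 ± 14.6 over 3528 bp. It stood above Irs2 and is not among the 10 genes. The other named regions above Irs2 that are not among them, named after their values were seen, were narrow and dense: 2210408I21Rik at 1721 per kb, 6820431F20Rik at 544 and Mdga2, a synaptic adhesion protein, at 465. Their signals were 1950 ± 1110, 717 ± 40.3 and 729 ± 460 (SD, n = 2). Mdga2 held 382, 425, 1012 and 1097 in saccharin libraries 1 to 4, and 2210408I21Rik 1117, 1214, 2635 and 2836. Both were thus higher in libraries 3 and 4, which also had more signal in the 15 strongest regions. Mdga2 lay below Irs2 in libraries 1 and 2. Whether they are satellite-type was not tested. Denser than Cdk13 were 20 regions, of which 0 were as wide as the narrowest of the 10. This 0, and the count of 1 other wide region as strong as Irs2, go with the choice, since the 10 were picked for summed signal. Just below Irs2 came Hnrnpu, an RNA-binding protein of the nuclear scaffold, at 699.9, the nuclear receptor coactivator Ncoa2 at 699.9, Taf4a, a TFIID subunit, at 697, a second region at 6820431F20Rik at 696 and the junction protein Mllt4 at 684. The step from Irs2 to Hnrnpu is smaller than the SD of Irs2, so the border of the set is not resolved by these samples. Nearest to the median of the 10 in log2 signal and log2 width, over the postnatal saccharin libraries, were Phf13, Taf4a, Tsc22d2, Ncoa2 and Ubtf, at distances of 0.25 to 0.40.

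The nicotine libraries, which the choice did not use, ranked the regions much as the controls did, although ranks in the 2 tables rest on separately adjusted values. In postnatal nicotine they took ranks 9 to 28 with a median of 17.5, and 10 of 10 were among the top 20 named regions. In pre- and postnatal saccharin the ranks were 18 to 44, with 8 of 10 in the top 20 named, and in pre- and postnatal nicotine 19 to 59, with 7 of 10. The lowest ranks in those groups belonged to Ssbp3 (44) and Irs2 (59), and Cpeb2 kept the highest in all 4 groups, at 7, 9, 18 and 19.

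In 3 groups the 10 regions had a lower median spread between libraries than regions near them in signal, and in the fourth a higher one. The measure was the SD of log2 signal within a group, set beside its median over the 100 regions nearest in signal, since counting noise falls as signal rises. The match in signal is incomplete. The 10 rank near the top, so in postnatal saccharin most of their nearest regions were weaker. The sets of nearest regions overlapped there and held 107 regions in all. In postnatal saccharin the median SD of the 10 was 0.095, against 0.13 for the nearest regions and 0.14 for all ranked regions, and 7 of 10 lay at or under the value of their nearest regions. In postnatal nicotine the medians were 0.032, 0.046 and 0.13, with 6 of 10 at or under it, and in pre- and postnatal saccharin 0.073, 0.10 and 0.22, with 8 of 10. Pre- and postnatal nicotine differed: the 10 had a median SD of 0.23 where their nearest regions had 0.18 and all regions 0.31, and 2 of 10, Arid1b and Ssbp3, lay at or under their nearest regions. The spread of the 10 in this group went with library 1. Without that library the median SD of the 10 was 0.070, and it was 0.24 without library 3 and 0.27 without library 4. The nearest regions were not measured with a library left out, so whether their spread falls likewise is not known. With 2 or 3 samples per group each SD is itself poorly determined, and none of these differences was tested.

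**Figure D3:**
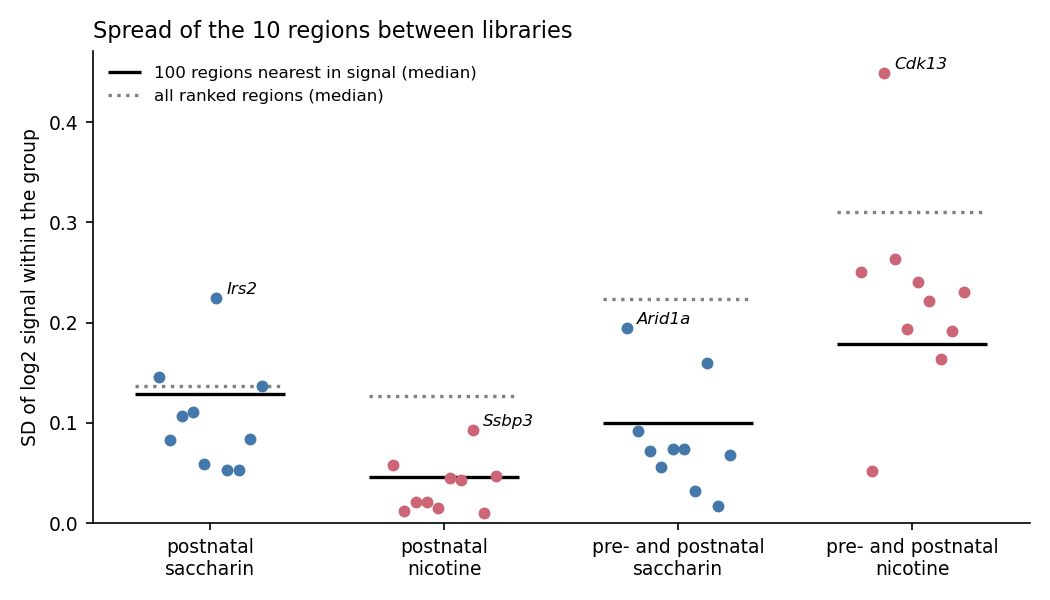
SD of log2 signal of each of the 10 regions within each group (points, in alphabetical order of gene from left to right), with the median over the 100 regions nearest in signal (black bar) and over all ranked regions (dotted). Most points lie under the black bar in the first 3 groups and above it in pre- and postnatal nicotine, where Cdk13 reached 0.45.

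By gene, Yy1 was among the steadiest, with an SD of 0.010 in postnatal nicotine and 0.018 in pre- and postnatal saccharin. Klf13 was likewise steady in both saccharin groups, at 0.053 and 0.032. Irs2 had the highest SD in postnatal saccharin, 0.22, Ssbp3 in postnatal nicotine, 0.093, Arid1a in pre- and postnatal saccharin, 0.19, and Cdk13 in pre- and postnatal nicotine, 0.45. In that last group Arid1b had the lowest, 0.052.

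The next comparison asked whether nicotine after birth altered the mark at these promoters in the adult cortex. The differences were small and none passed the test. With limma on log2(signal + 1) and Benjamini-Hochberg adjustment over 14873 regions, 0 of the 10 had an adjusted p under 0.05, where 0% of all regions did, and 0 of 10 had an unadjusted p under 0.05, where 1.89% did. The adjusted p of each of the 10 was 1.00. The choice of the genes used the saccharin arm, so these tests are not fully apart from it. Cdk13 differed the most, by 0.15 ± 0.13 (SE; 95% interval -0.11 to 0.42) on the log2 scale for nicotine minus saccharin, and Klf13 by 0.14 ± 0.12 (SE; 95% interval -0.11 to 0.39). Arid1a, the BAF subunit, had 0.13 ± 0.12 (SE; 95% interval -0.12 to 0.38), and its paralog Arid1b 0.085 ± 0.12 (SE; 95% interval -0.17 to 0.34). The least difference was at Irf2bp2, with 0.0058 ± 0.12 (SE; 95% interval -0.25 to 0.26). The others lay between: Yy1 at 0.082, Irs2 at 0.071, Zswim6 at 0.051, Cpeb2 at 0.042 and Ssbp3 at 0.028, with intervals that all held 0. Across these intervals the highest upper limit, at Cdk13, was 0.42, and the lowest lower limit, at Irf2bp2, -0.25. They hold for this scaling and for the spread between these samples, and do not bound an effect of nicotine. Under quantile normalization Cpeb2 had -0.22 ± 0.23 (SE).

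**Figure D4:**
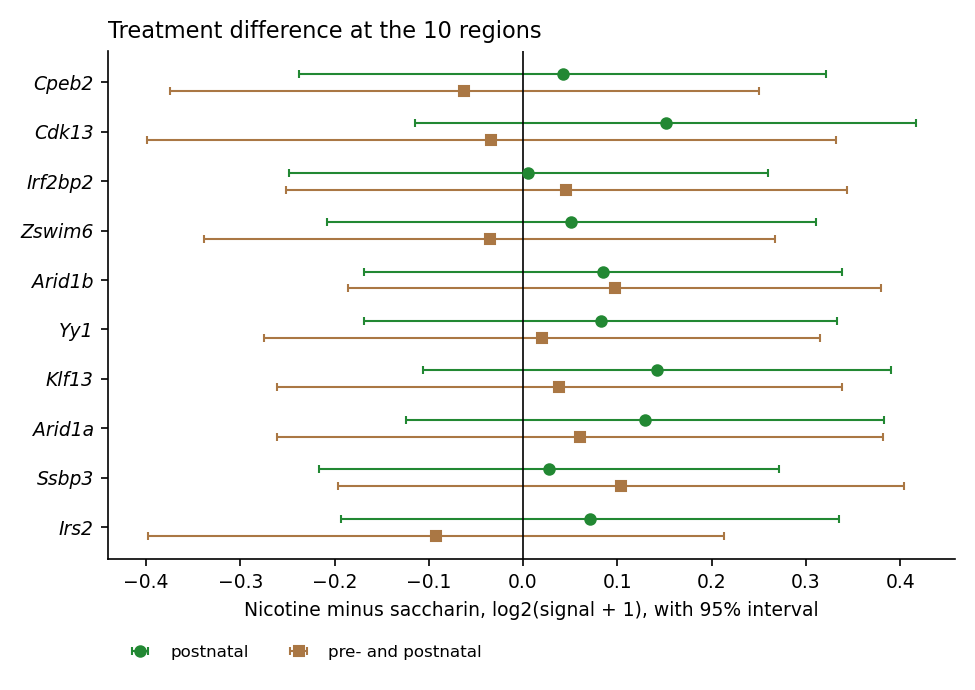
Nicotine minus saccharin on log2(signal + 1) for each of the 10 regions, with 95% intervals from limma before adjustment for multiple tests; circles are the postnatal and squares the pre- and postnatal exposure. Every interval crosses 0; all circles lie right of 0 and the squares on both sides.

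The direction was shared, here and beyond these genes. The mean of log2(signal + 1) was higher with nicotine at 10 of 10, where it was higher at 49.1% of all regions, and at 90 of the 100 strongest other named regions, whose median log2 difference was 0.080 against 0.077 for the 10 and -0.0036 for all regions. Both averaged nicotine samples exceeded both saccharin samples at 4 of the 10, Cdk13, Arid1b, Yy1 and Klf13, against 28 of the 100 strongest other named regions and 15% of all regions. This direction depended on the scaling and on 1 sample. Under quantile normalization this mean was higher with nicotine at 1 of the 10, against 49.6% of all regions, with a median of -0.077 for the 10. Without saccharin libraries 3 and 4 it was higher at 5 of the 10, against 50.0% of all regions, with a median of 0.0063 for the 10. The average of saccharin libraries 3 and 4 lay below that of libraries 1 and 2 at 10 of the 10 (median log2 difference -0.13) and at 93 of the 100 strongest other named regions (median -0.16), against 50.1% of all regions. Those libraries also had 17.8% and 19.5% of their signal in the 15 strongest regions, against 8.30% and 8.65% in saccharin libraries 1 and 2. The nicotine pairs did not repeat this: the 10 regions summed to 8736 and 8708 in nicotine libraries 1 and 2, at shares of 25.5% and 24.9%, and to 8842 and 8631 in libraries 3 and 4, at 9.41% and 10.7%. Set against the saccharin pair of like share, nicotine was higher at 10 of the 10 in the high-share pairs (median 0.15). In the low-share pairs it was higher at 5 of the 10 (median 0.0015). Each of these sets 1 averaged sample against 1. Other regions were not counted in this way, so these counts are not a result about the 10 in particular. With the share as a covariate, set as high or low, the log2 differences at the 10 stayed the same. Each group has 1 averaged sample of each kind, so this fit could not change them. What brought about the pattern was not tested.

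After exposure before and after birth the regions lay on both sides of 0. With limma, 0 of the 10 passed an adjusted p under 0.05 over 14879 regions, as for 0% of all regions, with adjusted p of 0.987 to 0.994, and 0 of 10 had an unadjusted p under 0.05, where 3.59% of all regions did. Ssbp3 had the highest difference, 0.10 ± 0.14 (SE; 95% interval -0.20 to 0.40), and Irs2 the lowest, -0.092 ± 0.15 (SE; 95% interval -0.40 to 0.21). Arid1b followed Ssbp3 with 0.097 ± 0.14 (SE; 95% interval -0.19 to 0.38). Cdk13, which led after postnatal exposure, had -0.034 ± 0.18 (SE; 95% interval -0.40 to 0.33). Arid1a stood at 0.061, Irf2bp2 at 0.046, Klf13 at 0.038 and Yy1 at 0.020, and Zswim6 at -0.035 and Cpeb2 at -0.062. The mean of log2(signal + 1) was higher with nicotine at 6 of the 10, where it was higher at 50.5% of all regions. Cdk13 is not among the 6, although its untransformed mean was 559 with nicotine and 553 with saccharin. All nicotine samples exceeded all saccharin samples at 0 of the 10, against 4.49%. The median was 0.029, against 0.055 for the 100 strongest other named regions and 0.0027 for all regions. Without nicotine library 1 the log2 mean was higher with nicotine at 3 of the 10, against 49.6% of all regions, with a median of -0.084 for the 10. The difference between the exposures was tested as well, as the difference of the 2 fits: the adjusted p was 1.00 at each of the 10, with Cdk13 the furthest apart (-0.19 ± 0.22, SE, for pre- and postnatal minus postnatal).

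Library 1 of pre- and postnatal nicotine stood above both other nicotine libraries at 9 of the 10 regions and at 57 of the 100 strongest other named regions, against 36.6% of all regions. Its 10 regions summed to 5571, against 4439 and 4299 in nicotine libraries 3 and 4 and 4743, 4802 and 4511 in the saccharin libraries 1, 2 and 3. It was also the library with the least signal in the 15 strongest regions, 19.1%, where the others had 28.8% to 49.7%. Over these 6 libraries the summed signal had a Pearson's r of -0.84 with the share, and of -0.58 over 4 libraries without the 2 farthest in share. With the share as a covariate, the mean of log2(signal + 1) was higher with nicotine at 8 of the 10, against 50.2% of all regions. The median difference at the 10 was then 0.049. What brought about the pattern was not tested for this exposure either.

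**Figure D5:**
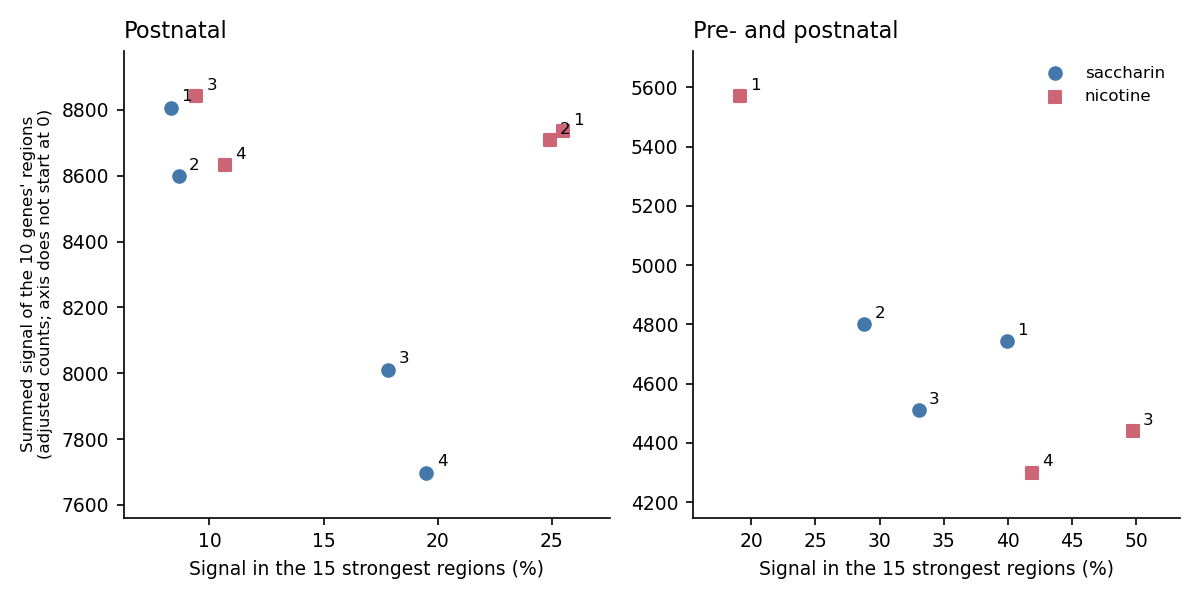
Summed signal of the 10 genes' strongest regions (vertical axes, adjusted counts, not starting at 0) against the percent of a library's signal in the 15 strongest regions. Each point is 1 library with its number; circles are saccharin and squares nicotine. Postnatal saccharin libraries 3 and 4 lie lowest in the left panel, and pre- and postnatal nicotine library 1 lies highest and furthest left in the right panel.

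Partners and paralogs of these genes mostly had less dense regions. Lists were set for 8 groups around them and described by their medians and counts, with signal in postnatal saccharin (mean ± SD, n = 2). The median density of a list was 57.1 (ZSWIM paralogs) to 138 per kb (YY1 and IRF2BP partners), against 222 for the 10 genes. Density is signal over width, so this gap goes with the choice of the 10 for their signal. Nicotine minus saccharin differences are given as counts and medians of the difference in mean log2(signal + 1), so higher and lower refer to that scale, and the median of all tested regions was -0.0036 after postnatal and 0.0027 after pre- and postnatal exposure. With limma, 0 of the 71 list genes passed an adjusted p under 0.05 in either exposure. At an unadjusted p under 0.05 it was 1, the BAF subunit Smarcc2 (named after its value was seen), after postnatal exposure and 0 after pre- and postnatal exposure, where 1.89% and 3.59% of all regions were. Of 26 other BAF and PBAF subunits 23 had a region, with a median signal of 136 in postnatal saccharin. The strongest were Ss18l1, the neuronal BAF subunit also called CREST, at 654 ± 57.3 (261 per kb) and Bcl7a at 382 ± 36.7 (143 per kb). Among these 23, the log2 mean with nicotine was higher at 17 and lower at 6 after postnatal exposure and at 14 and 9 after pre- and postnatal exposure (medians 0.075 and 0.049). Of the core ATPases, named after their values were seen, Smarca4 (BRG1) held 117 ± 1.12 (57.8 per kb) and Smarca2 (BRM) 5.36 ± 2.58 (6.58 per kb).

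The KLF and SP factors, which share GC-rich binding sites with Klf13, had 14 of 18 measured and a median of 248. Sp3 was the strongest at 578 ± 53.6 (176 per kb), then Klf9, a target of thyroid and glucocorticoid hormones in neurons, at 443 ± 21.0 (119 per kb). Here the log2 mean with nicotine was higher at 11 and lower at 3 after postnatal exposure and at 10 and 4 after pre- and postnatal exposure (medians 0.045 and 0.11). Of the 10 YY1 and IRF2BP partners 5 were measured, led by the Polycomb-associated Yaf2 at 459.9 ± 47.5 (194 per kb) and by Irf2 at 404 ± 14.8 (129.9 per kb), and the log2 mean with nicotine was higher at 4 and lower at 1 after postnatal exposure and at 4 and 1 after pre- and postnatal exposure. All 7 SSBP and LDB partners had a region, with Ssbp2 at 374 ± 77.2 (135 per kb) and Ldb1 at 298 ± 8.25 (126 per kb), and the log2 mean with nicotine was higher at 5 and lower at 2 after postnatal exposure and at 4 and 3 after pre- and postnatal exposure. Among the elongation kinases and their partners 5 of 8 were measured: Cdk9, the kinase of P-TEFb, held 298 ± 30.0 (115 per kb) and Cdk12, the closest paralog of Cdk13, 197 ± 5.55 (72.2 per kb), and the log2 mean with nicotine was higher at 4 and lower at 1 after postnatal exposure and at 3 and 2 after pre- and postnatal exposure.

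Around the genes outside transcription, 5 of 6 CPEB paralogs and partners were measured, with Cpeb3 at 346 ± 3.80 (98.7 per kb) and the antiproliferative Tob1 at 300.2 ± 41.4 (167 per kb). In that list the log2 mean with nicotine was higher at 1 and lower at 4 after postnatal exposure and at 4 and 1 after pre- and postnatal exposure (medians -0.081 and 0.048). For insulin and IGF signalling 8 of 11 were measured. The receptor gene Igf1r held 529.9 ± 40.8 (122 per kb), the kinase Akt1 386 ± 39.6 (208 per kb) and Irs1, the paralog of Irs2, named after its value was seen, 185 ± 7.28 (60.3 per kb), and the log2 mean with nicotine was higher at 5 and lower at 3 after postnatal exposure and at 4 and 4 after pre- and postnatal exposure. Of 6 ZSWIM paralogs 4 were measured, with Zswim5 at 390.4 ± 5.90 (157 per kb) and Zswim4 at 148 ± 1.45 (78.1 per kb), and the log2 mean with nicotine was higher at 2 and lower at 2 after postnatal exposure and at 2 and 2 after pre- and postnatal exposure. In each of the 8 lists the strongest gene held less summed signal than Irs2, the weakest of the 10; since the 10 were picked for summed signal, this follows from the choice. Per kb, Ss18l1 lay close to Cdk13 and above the other 9.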

How the data were processed

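H3K4me3 ChIP-seq signal was analysed in 14 libraries of 4 groups, taken from the labels. The deposited unit is signal, that is, counts of reads in each region (build mm9) adjusted with edgeR per the submitters' processing notes, not whole and never negative, each exposure in its own table. No aligner, peak caller or version is named in the sources used here. Each table had 19203 rows. Values stood in 14881 of them, and 4322 that repeated coordinates without values were left out. Tests were two-sided limma 3.58.1 with trend (R 4.3.3) on log2(value + 1), over regions reaching a value of 1 in no fewer samples than the smaller group has. Benjamini-Hochberg adjustment ran over all regions tested, with a threshold of 0.05, and the fit was tested on simulated data.

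The genes, lists and tests were chosen with earlier results of these data known. Named regions were the 10 genes, the 5 named regions next below them, the 5 most like them, and the 2 strongest genes of each list. A gene of the cortical excitatory list is not reported here. Same-numbered nicotine and saccharin samples did not deviate together (r = -0.51 postnatal, -0.086 and -0.065 pre- and postnatal), so the numbers were not taken to pair them. The crossed postnatal samples, nicotine 1 and 2 with saccharin 3 and 4 and the reverse, had r = 0.51. With 2 samples per group this is the same value with its sign turned. The main fit leaves this crossed pairing out, and the fit with the share as a covariate takes it in. Positions in exons or introns, and sequence of the mm9 regions, were not analysed here. Figures were drawn with matplotlib 3.10.9.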

Additional observations from a re-analysis of the deposited data

How the results depend on the processing

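With limma, the count of regions past an adjusted p under 0.05 was 0 in both exposures and under most alternatives. After postnatal exposure it was 1 with the replicate block, 9 with the share in the 15 strongest regions as a covariate (the crossed pairing of the samples) and 0 to 31 with 1 sample left out (7 without nicotine libraries 1 and 2, 31 without 3 and 4); after pre- and postnatal exposure it was 0 with the replicate block and 0 to 17 with 1 library left out (17 without nicotine library 1). None of the 10 genes was called under any alternative. A lone sample left in a group is assumed to vary like the other samples, and the cause of these changes was not tested.

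Directions at the 10 genes were less stable. The postnatal count of 10 with a higher mean of log2(signal + 1) in nicotine was 1 under quantile normalization and 5 to 10 with 1 sample left out (5 without saccharin libraries 3 and 4), and the pre- and postnatal count of 6 was 3 without nicotine library 1 and up to 9 without library 4. Over all regions the postnatal percent was 49.6% under quantile normalization and 48.9% to 52.0% with 1 sample left out. After pre- and postnatal exposure it was 49.3% to 50.9% with 1 library left out. Postnatal log2 differences that turned were, under quantile normalization, Cpeb2 -0.22, Cdk13 -0.14, Irf2bp2 -0.18, Zswim6 -0.061, Arid1b -0.096, Yy1 -0.091, Klf13 -0.014, Ssbp3 -0.063 and Irs2 -0.059, and after rescaling outside the 15 strongest regions Irf2bp2 -0.022 and Ssbp3 -0.00011. With 1 sample left out they ran Cpeb2 -0.036 to 0.12, Irf2bp2 -0.036 to 0.047, Zswim6 -0.046 to 0.15, Ssbp3 -0.038 to 0.093 and Irs2 -0.088 to 0.23. After pre- and postnatal exposure they were Cpeb2 0.065, Cdk13 0.13 and Irf2bp2 -0.071 under quantile normalization, Cpeb2 0.067, Cdk13 0.12 and Zswim6 0.047 with the replicate block, Cdk13 0.042 and Zswim6 0.0067 with the share as covariate and Yy1 -0.025 and Klf13 -0.0063 after rescaling. With 1 library left out they ran Cpeb2 -0.21 to 0.035, Cdk13 -0.29 to 0.11, Irf2bp2 -0.042 to 0.15, Zswim6 -0.17 to 0.038, Yy1 -0.086 to 0.10, Klf13 -0.082 to 0.14 and Arid1a -0.057 to 0.19.

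The median level of the 10 was 469 and their median density 128 per kb in the pre- and postnatal saccharin libraries, a separately adjusted table. Their median SD in postnatal saccharin was 0.067 after rescaling, and that in pre- and postnatal nicotine 0.070 to 0.27 with 1 library left out. The median postnatal nicotine rank was 32.5 with all regions ranked and 7.5 among named ones. Chosen after seeing the data were the counts of the 10 with a higher log2 mean under every setting, the level and density without single samples, the spread in pre- and postnatal nicotine and the ranks among named regions. Pseudocount 5, no filter, summing the regions of a gene and using each library as its own sample changed no direction at the 10 genes. Unknown depth and 2 or 3 samples per group limit what could be detected.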

Other observations

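The cell type markers had less dense regions than the 10 genes, whose lowest was 174 per kb. This too goes with the choice of the 10 for their signal. Signal is given as mean ± SD (n = 2) in postnatal saccharin. Of the oligodendrocyte list 4 of 6 genes had a region, led by the lineage factor Olig1 at 142 ± 9.17 (77.4 per kb) and by Mbp, a myelin protein, at 95.8 ± 11.0 (50.3 per kb). Of the interneuron list 4 of 5 did, with the homeobox factors Dlx2 at 47.8 ± 4.97 (32.5 per kb) and Dlx1 at 41.8 ± 2.54 (23.9 per kb). The endothelial list had 2 of 4, Flt1, a VEGF receptor, at 86.0 ± 11.2 (45.6 per kb) and Cldn5, a tight junction protein, at 37.4 ± 6.86 (28.5 per kb), and the hindbrain list 2 of 6, En2 at 169 ± 15.3 (74.5 per kb) and En1 at 23.6 ± 9.36 (21.8 per kb). Among the cortical excitatory genes Neurod2, a neuronal bHLH factor, held 184 ± 15.8 (60.5 per kb). The tissue mixes these cells.

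Of the regions most like the 10 in signal and width, Taf4a held 697 ± 132 over 3307 bp, Tsc22d2, a leucine zipper protein, 648 ± 129 over 3713 bp, Ncoa2 699.9 ± 82.1 over 3241 bp and Ubtf, the upstream binding factor of ribosomal RNA genes, 619.9 ± 58.5 over 3937 bp, all in postnatal saccharin.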
